A study of Mus musculus with 33 samples.

Results

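The genes described here are 45 nuclear genes that encode subunits of the mitochondrial oxidative phosphorylation system, chosen by symbol from a count table of 54532 genes. All 45 symbols were found. All 45 also passed the filter on low counts in each of the 4 comparisons made, so no member is missing from any count given for them. They are 19 subunits of complex I, 4 of complex II, 6 of complex III, 11 of complex IV and 5 of complex V. Ndufa4, once assigned to complex I, was counted with complex IV, the complex it is now known to belong to.

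RNA from mouse mammary tumours was sequenced. All samples carry FVB as their genotype label, and the protocol states that tumours were transplanted into mice and treated. RP-6306 inhibits PKMYT1, a kinase that restrains CDK1 by phosphorylation, and the design text compares inhibitor with control and cyclin E transgenic tumours with PyMT tumours. The study has 32 samples in 6 title groups, and 1 further sample with contradicting labels was not used.

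The group M20_7 holds 4 tumours given RP-6306, and VEH_7 holds 3 tumours given vehicle. The group MYT holds 11 tumours given RP-6306, and VEH holds 4 tumours given vehicle. The dose is labelled 20 mg/kg in both inhibitor groups, as a twice-daily dose in one label and as a daily dose in another. SPON and WT hold 5 untreated tumours each. The meaning of the suffix _7, the length of treatment, the tumour line, the promoter of any transgene, animal ages and which of SPON and WT is the cyclin E or the PyMT tumour are not given in the sources used here. Nor do the labels say whether each tumour of a group is from its own animal, and the tests therefore measure the spread between these samples.

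Oxidative phosphorylation passes electrons from NADH and succinate to oxygen and uses the resulting proton gradient to make ATP. Complex I takes electrons from NADH and complex II, which is also the succinate dehydrogenase of the TCA cycle, takes them from succinate. Complex III passes them to cytochrome c, complex IV hands them to oxygen, and complex V is the ATP synthase. Core subunits of complexes I, III, IV and V are made inside the mitochondrion from mitochondrial DNA, so these complexes are built from the products of both genomes. Many nuclear genes of this system are known targets of the transcription factor NRF1 and of the ETS factor GABP.

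Libraries of the 2 groups titled _7 held 26517748 to 34637096 counts, and libraries of the other 4 groups held 13701115 to 20105407. The tissue label was checked with 12 luminal epithelium markers, keratins and claudins among them. Levels are given as CPM, the counts of a gene scaled to a common library size. The summed level of these markers was 4464 to 10532 CPM in MYT, 613 to 1847 in VEH, 5086 to 11173 in SPON and 4706 to 6194 in WT. In the groups titled _7 it was 31.1 to 65.8 CPM in M20_7 and 21.7 to 94.5 CPM in VEH_7, where fibroblast and mesenchymal markers summed to 29533 to 40069 CPM in M20_7 and 30210 to 52448 CPM in VEH_7. Among the luminal markers, Cldn4 and Elf3 had no count in at least 1 library of M20_7 and, with Cldn7 and Ehf, in at least 1 of VEH_7. Replicates 1 and 5 of SPON stood apart in the share of counts from mitochondrially encoded genes, at 20.0% and 23.6%, against 2.89% to 5.02% in the other 3 SPON libraries and 2.73% to 7.75% in WT. The main results in SPON are therefore given with and without these 2 libraries. In bulk tumour RNA, fewer cells of a type and less RNA per cell cannot be told apart.

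The summed level of the 45 genes averaged 4683 ± 555 CPM in M20_7 and 4369 ± 397 CPM in VEH_7 (SD, n = 4 and 3). It averaged 6897 ± 949 CPM in MYT and 5857 ± 569 CPM in VEH (SD, n = 11 and 4). In the untreated tumours it averaged 9500 ± 2505 CPM in SPON and 7013 ± 929 CPM in WT (SD, n = 5 each). Without SPON replicates 1 and 5 the SPON mean was 8269 ± 1717 CPM (SD, n = 3). In order of the mean the groups ran SPON, WT, MYT, VEH, M20_7, VEH_7, and the ranges of every pair of neighbours in that order overlapped. As a share of all counts the members took 0.422% to 0.550% in M20_7, 0.376% to 0.467% in VEH_7, 0.599% to 0.846% in MYT, 0.516% to 0.607% in VEH, 0.645% to 1.02% in SPON and 0.682% to 0.869% in WT.

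**Figure D1:**
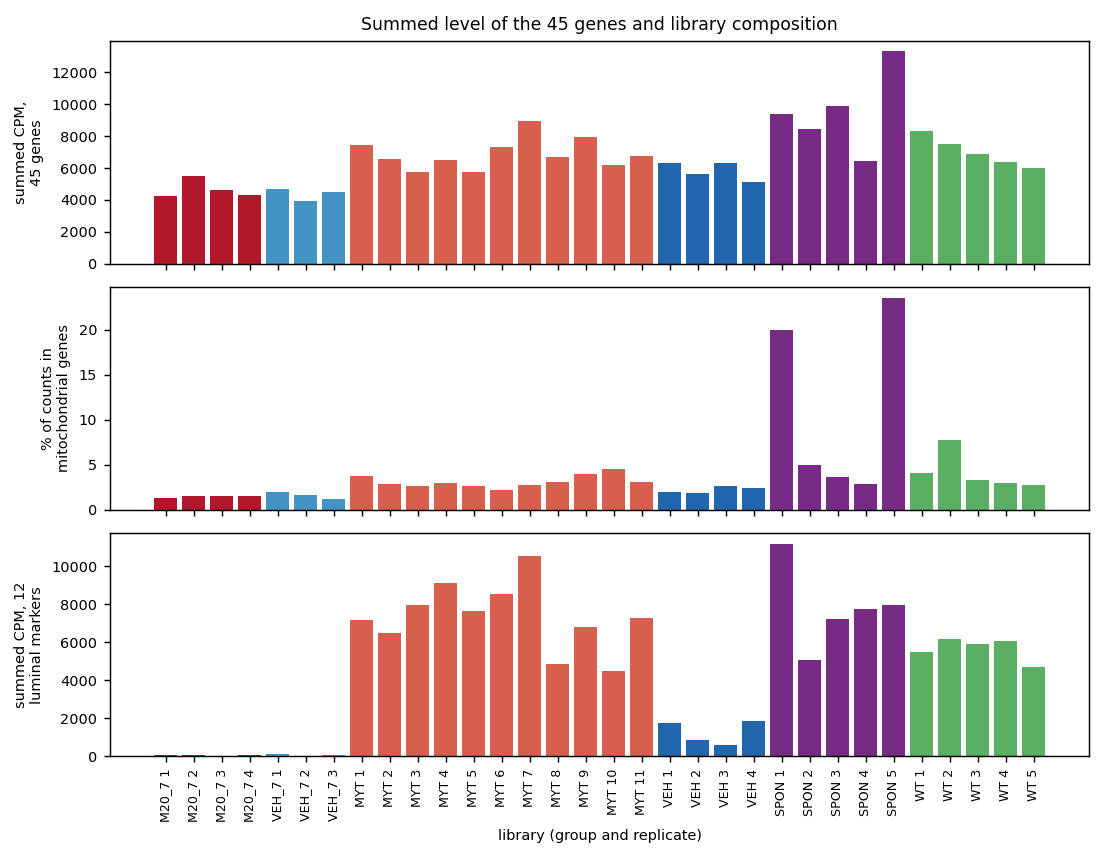
Bars give 1 library each, with the groups along the horizontal axis: the summed level of the 45 genes (CPM), the share of counts from mitochondrially encoded genes (%) and the summed level of 12 luminal epithelium markers (CPM). SPON replicates 1 and 5 reach 20.0% and 23.6% mitochondrially encoded counts, and the luminal markers stay at or below 94.5 CPM in the groups titled _7.

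SPON had the highest group mean for 34 of the 45 genes, and for 17 without its replicates 1 and 5, and VEH_7 had the lowest for 28. With all libraries, the exceptions at the top were Ndufab1, Ndufb5, Ndufs3, Ndufv2 and Uqcrb in WT, Ndufs1 and Sdhb in M20_7, Ndufv1 and Sdha in MYT, and Cox5a and Sdhd in VEH. Per kilobase of exon, the levels of the members in WT ran from 7.0 CPM per kb for Ndufs1, the iron-sulfur subunit that is the largest of complex I, to 458 CPM per kb for the complex IV subunit Cox6a1. Cox8a, Cox4i1 and Cox6b1, also of complex IV, followed at 378, 301 and 284 CPM per kb. Atp5a1, the alpha subunit of the ATP synthase, was the next at 231 CPM per kb, so complex IV supplied the top of this order. The low end held Ndufab1, the mitochondrial acyl carrier protein, at 9.87 CPM per kb, and Cox7c, a small subunit of complex IV, at 13.3 CPM per kb. Length here counts every annotated exon base of a gene, 6883 for Ndufab1 and 8086 for Ndufs1, and not the transcript expressed. Of the 50-base stretches of Cox7c, 22.1% also occur in other genes, so its reads may be shared with them. The order therefore depends on annotation and on shared sequence as well as on RNA level.

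**Figure D2:**
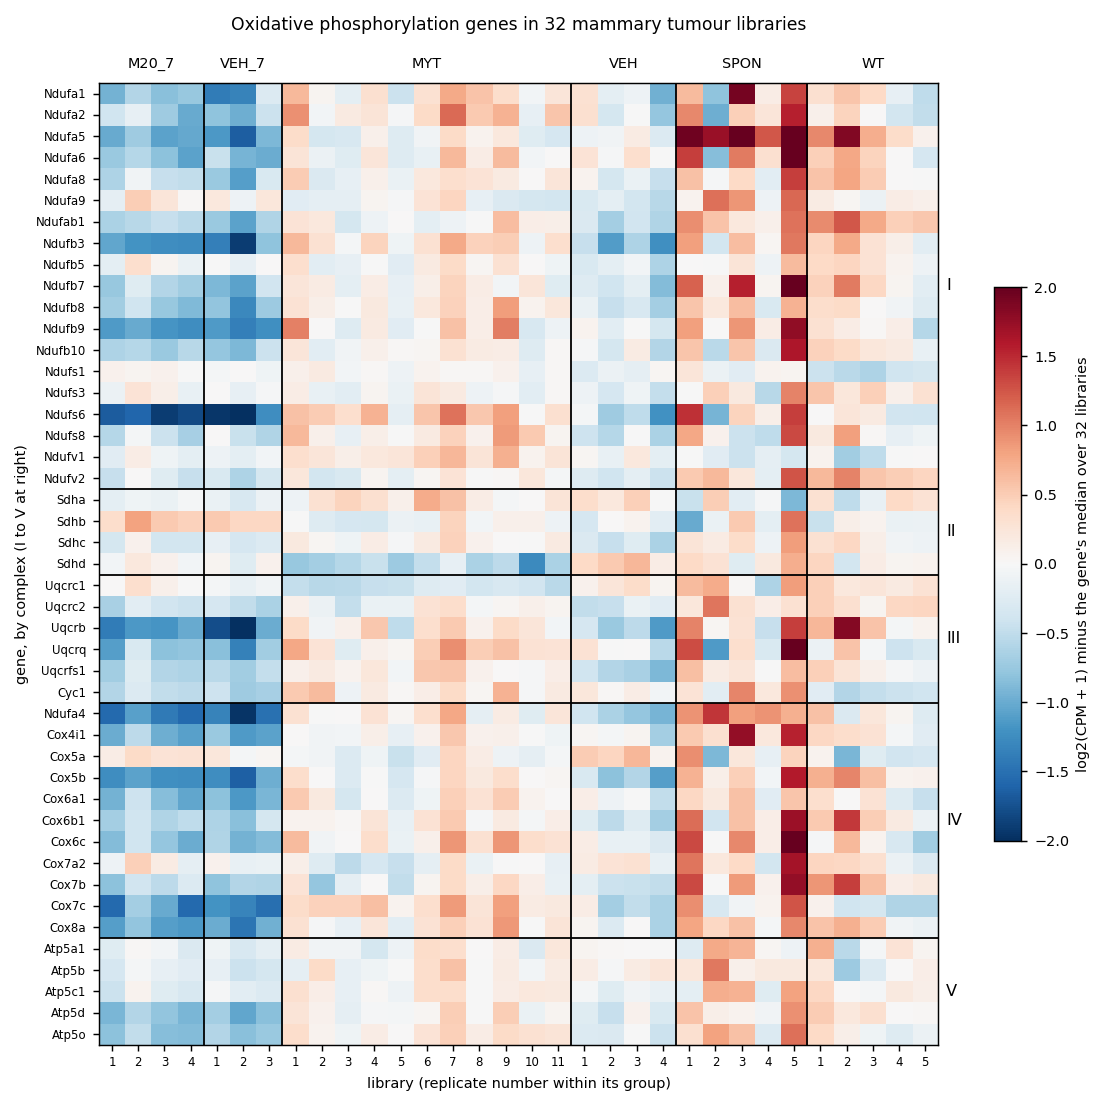
Each line of the map is 1 of the 45 genes, arranged by complex, and each column 1 of the 32 libraries, arranged by group. Colour gives log2(CPM + 1) minus the gene's median over the libraries. SPON replicate 5 is the highest SPON library for 32 of the 45 genes and VEH replicate 4 the lowest VEH library for 36.

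RP-6306 tumours were compared with vehicle tumours within the groups MYT and VEH, the question being how the inhibitor group differs from its vehicle group. The labels do not say whether the tumours of MYT and VEH are of the same line, so the inhibitor and a difference of line cannot be told apart in any value of this comparison. Of the 45 members, 23 were called higher in MYT and 3 were called lower, with edgeR at an adjusted p under 0.05. Over all 16021 genes tested, 59.5% were called, 30.5% higher and 29% lower, so the total of 26 members is close to the general share, with the higher ones above the share called higher and the lower ones below the share called lower. The median log2 fold change of the members was 0.35, against 0.04 over all genes tested, and 39 of the 45 were positive. An unadjusted p under 0.05 was found for 30 members, against 63.8% of all genes. The 3 that fell were Sdhd, Uqcrc1 and Cox5a, in complexes II, III and IV.

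In complex I, 11 of 19 subunits rose and none fell, with a median of 0.37. Ndufb3, an accessory subunit of the membrane arm, lay between 42.0 and 77.6 CPM with a median of 57.6 in MYT, against 32.8, 20.4, 29.3 and 18.8 CPM in the VEH replicates. The lowest MYT library lay above the highest VEH library, so the groups did not overlap. The log2 fold change of Ndufb3 was 1.20 ± 0.19 (SE, adjusted p = 4.15e-05 in edgeR). Ndufs6, an accessory subunit that binds zinc, lay between 36.2 and 88.4 CPM with a median of 60.0 in MYT, against 40.0, 24.9, 28.5 and 17.1 CPM in VEH. Its groups overlapped through VEH replicate 1, the highest of the vehicle libraries. The log2 fold change of Ndufs6 was 1.11 ± 0.23 (SE, adjusted p = 0.000505 in edgeR).

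The other 9 called subunits of complex I had log2 fold changes between 0.34 and 0.69 and edgeR adjusted p values up to 0.0412. Among them were 3 that carry electrons or bind NADH, namely Ndufs8 at 0.69, Ndufv1 at 0.37 and Ndufv2 at 0.34. Ndufs1 was not called: it lay between 70.1 and 88.9 CPM with a median of 79.7 in MYT, against 64.8, 72.0, 69.2 and 80.6 CPM in VEH, a log2 fold change of 0.16 ± 0.08 (SE, adjusted p = 0.114 in edgeR). The VEH values lay inside the MYT range except that of replicate 1 and that of replicate 3, both just below it. The remaining 7 subunits of complex I that were not called ranged from -0.01 for Ndufa6 to 0.46 for Ndufa1.

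Complex II went in both directions, and its 2 membrane anchors, Sdhc and Sdhd, which hold the ubiquinone site, differed from each other. Sdhd lay between 36.6 and 79.7 CPM with a median of 57.7 in MYT, against 119, 129, 143 and 99.2 CPM in VEH, and every MYT library was below every VEH library. The log2 fold change of Sdhd was -1.06 ± 0.14 (SE, adjusted p = 5.32e-06 in edgeR), the lowest of the 45. Sdhc lay between 132 and 192 CPM with a median of 149 in MYT, against 115, 102, 119 and 90.5 CPM in VEH, with every MYT library above every VEH library. This gave a log2 fold change of 0.52 ± 0.11 (SE, adjusted p = 0.000453 in edgeR). The catalytic subunits were not called: Sdha, the flavoprotein, had a log2 fold change of 0.00 ± 0.14 (SE, adjusted p = 0.979 in edgeR), and Sdhb, the iron-sulfur subunit, had 0.07 ± 0.13 (SE, adjusted p = 0.680 in edgeR). Sdhb lay between 50.2 and 87.9 CPM with a median of 59.6 in MYT, against 50.2, 64.2, 67.5 and 55.2 CPM in VEH, and all 4 VEH values fell inside the MYT range.

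In complex III, 3 of 6 subunits rose and 1 fell, with a median of 0.39. Uqcrfs1, the Rieske iron-sulfur protein, lay between 145 and 223 CPM with a median of 162 in MYT, against 114, 99.99, 96.1 and 80.5 CPM in VEH, and the groups did not overlap. For Uqcrfs1 the log2 fold change was 0.81 ± 0.13 (SE, adjusted p = 4.44e-05 in edgeR). Uqcrb, known as a ubiquinone-binding subunit, lay between 36.9 and 77.0 CPM with a median of 62.9 in MYT, against 41.4, 31.3, 36.5 and 23.6 CPM in VEH, where replicate 1 reached into the MYT range. Its log2 fold change was 0.89 ± 0.18 (SE, adjusted p = 0.000536 in edgeR), and since 25.4% of its 50-base stretches also occur in other genes, its reads may be shared with copies. Uqcrc2, a core protein of the complex, rose by less, with a log2 fold change of 0.35 ± 0.13 (SE, adjusted p = 0.0265 in edgeR). Uqcrc1, the other core protein, went the opposite way: it lay between 122 and 153 CPM with a median of 132 in MYT, against 190.1, 213, 232 and 186 CPM in VEH. All 11 MYT libraries were below all 4 VEH libraries, and the log2 fold change was -0.60 ± 0.09 (SE, adjusted p = 1.91e-05 in edgeR). Uqcrq and Cyc1, which encodes cytochrome c1, were not called, with values of 0.44 and 0.18.

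In complex IV, 6 of 11 subunits rose and 1 fell, with a median of 0.44. Ndufa4 lay between 133 and 269 CPM with a median of 177 in MYT, against 119, 101, 91.9 and 81.8 CPM in VEH, with no overlap, and its log2 fold change was 0.86 ± 0.16 (SE, adjusted p = 0.000209 in edgeR). Cox7c lay between 20.5 and 35.8 CPM with a median of 25.3 in MYT, against 21.8, 11.7, 13.5 and 12.2 CPM in VEH, where replicate 1 alone reached the MYT range. Its log2 fold change was 0.85 ± 0.19 (SE, adjusted p = 0.000968 in edgeR), and 22.1% of its 50-base stretches occur in other genes too. Cox5b, Cox6b1, Cox6c and Cox8a rose by 0.77, 0.56, 0.48 and 0.44 on the log2 scale. For Cox5b, 11.9% of the 50-base stretches also occur in another gene. Cox5a, a matrix-side subunit, fell: it lay between 61.1 and 114 CPM with a median of 78.8 in MYT, against 119.8, 114, 133 and 87.9 CPM in VEH. The groups overlapped through VEH replicate 4, and the log2 fold change was -0.50 ± 0.13 (SE, adjusted p = 0.00425 in edgeR). Cox4i1, the largest nuclear-encoded subunit of the complex, was not called: it lay between 367 and 599.9 CPM with a median of 413 in MYT, against 423, 399.5, 429 and 256 CPM in VEH, where replicate 4 was far below the other 3. Its log2 fold change was 0.19 ± 0.14 (SE, adjusted p = 0.247 in edgeR).

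Complex V moved least among the complexes with more than 4 members, with a median of 0.27. Atp5o, the subunit that joins the catalytic head to the peripheral stalk, and Atp5c1, the gamma subunit of the central stalk, rose by 0.47 and 0.27 on the log2 scale. For Atp5o, 14.0% of the 50-base stretches also occur in other genes. Atp5b, the catalytic beta subunit, lay between 669 and 1128 CPM with a median of 752 in MYT, against 838, 743, 845 and 889.5 CPM in VEH, all inside the MYT range. Its log2 fold change was -0.01 ± 0.14 (SE, adjusted p = 0.970 in edgeR), and that of Atp5a1 was 0.03. Across the complexes, 6 of the 15 catalytic or electron-carrying subunits rose and 1 fell (median 0.25), and 17 of the 30 structural or accessory subunits rose and 2 fell (median 0.44). In this split, Sdhc and Sdhd, the membrane anchors with the ubiquinone site, were counted as catalytic or electron-carrying. So was Atp5c1 of the central stalk. The difference between these 2 kinds of subunit was not tested.

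**Figure D3:**
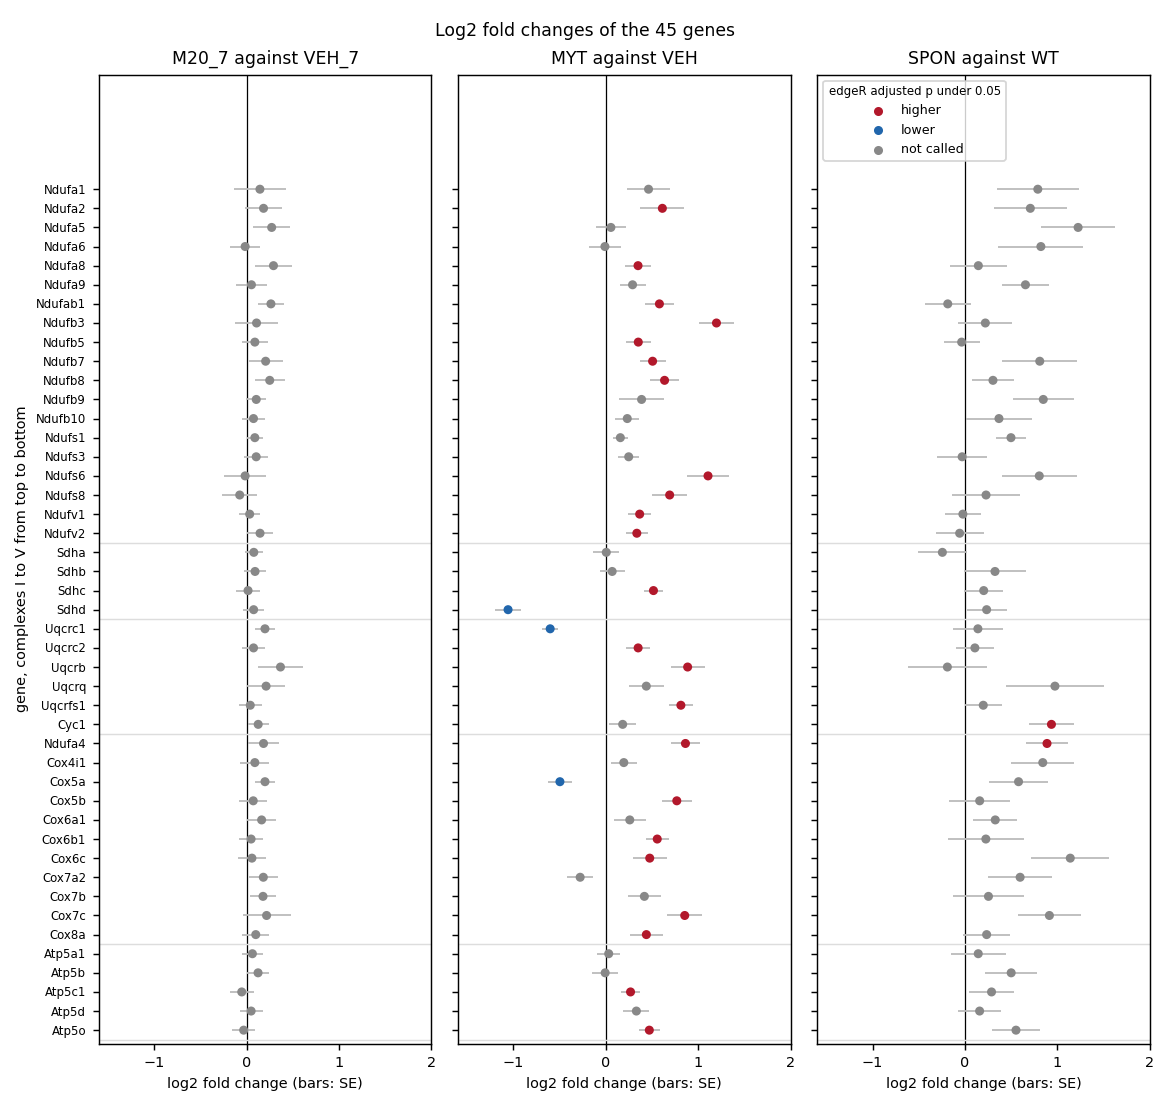
Points are log2 fold changes with their standard errors (horizontal axis) for the 45 genes, arranged by complex, in M20_7 against VEH_7, MYT against VEH and SPON against WT. Red marks genes called higher, blue genes called lower and grey genes not called. In MYT against VEH, 23 points are red and 3 are blue; in M20_7 against VEH_7 none is coloured.

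Separation of the libraries was counted as well. Of the 45 genes, 5 had every MYT library above every VEH library (Ndufb3, Sdhc, Uqcrfs1, Ndufa4 and Cox6b1), against 16.9% of all genes tested, and 2 had every MYT library below every VEH library (Sdhd and Uqcrc1), against 18.2%. Within the groups, MYT replicate 7 was the highest MYT library for 29 genes and VEH replicate 4 the lowest VEH library for 36. With 1 library left out at a time, 14 of the 23 higher genes and all 3 lower genes were called in each of the 15 fits. The other 9, which lost the call in at least 1 fit, were Ndufa2, Ndufa8, Ndufb5, Ndufv1, Ndufv2, Uqcrc2, Cox6c, Cox8a and Atp5c1; Cox8a and Atp5c1 were called in 7 fits each and Ndufa8 in 6. The members called were 17, of which 14 were higher, without VEH replicate 2, and 15 were higher without VEH replicate 4.

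**Figure D4:**
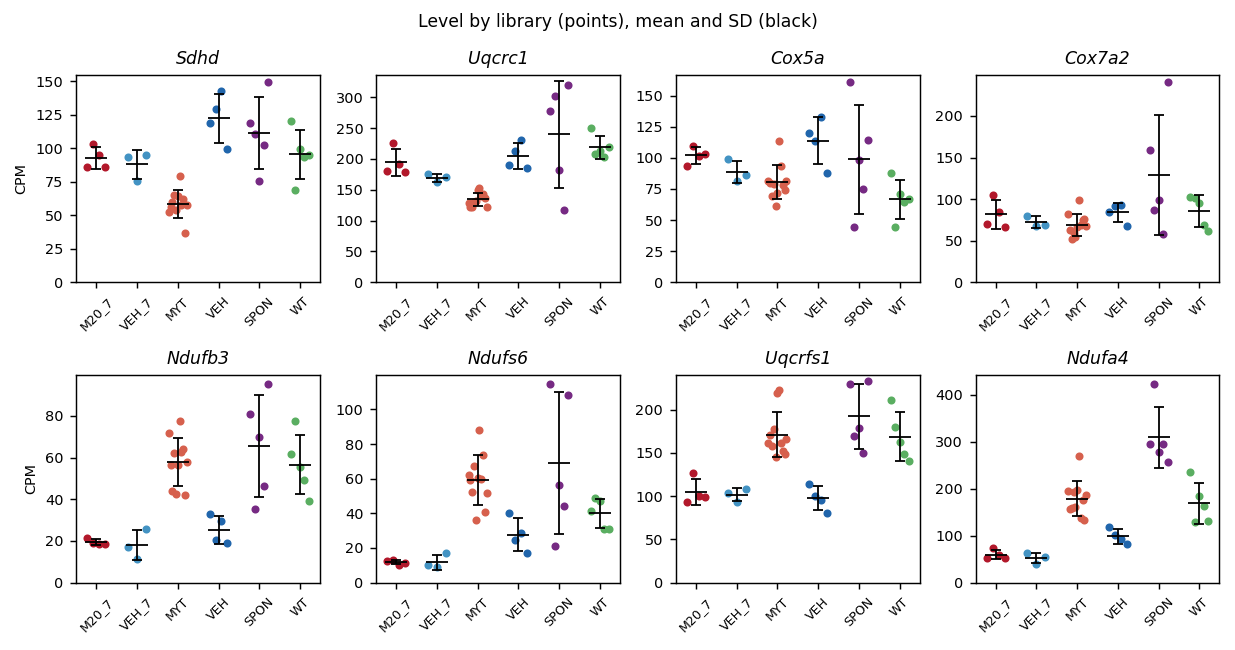
Points are the CPM of each library in the 6 groups for Sdhd, Uqcrc1, Cox5a, Cox7a2, Ndufb3, Ndufs6, Uqcrfs1 and Ndufa4, with bars for the mean and SD. MYT lies entirely below VEH for Sdhd and Uqcrc1 and entirely above it for Ndufb3, Uqcrfs1 and Ndufa4.

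Promoter sequences are shown for the 3 members that fell and the 2 with the largest rise, because the members moved in opposite directions although many genes of this system share promoter motifs. They are RefSeq sequences of the build GRCm38.p6, from 250 bases before to 50 after the gene's start, written 5′ to 3′ on the gene's strand. Capitals mark the motif of NRF1 (GCGC, any base, then TGCGC), the motif CCGGAAG of ETS factors and the motif AAGATGGC of YY1, on either strand. The windows are chr9:50603800-50604099 (minus strand) for Sdhd, chr9:108936398-108936697 (plus) for Uqcrc1, chr9:57520982-57521281 (plus) for Cox5a, chr1:58586147-58586446 (plus) for Ndufb3 and chr13:73328433-73328732 (minus) for Ndufs6.
Sdhd: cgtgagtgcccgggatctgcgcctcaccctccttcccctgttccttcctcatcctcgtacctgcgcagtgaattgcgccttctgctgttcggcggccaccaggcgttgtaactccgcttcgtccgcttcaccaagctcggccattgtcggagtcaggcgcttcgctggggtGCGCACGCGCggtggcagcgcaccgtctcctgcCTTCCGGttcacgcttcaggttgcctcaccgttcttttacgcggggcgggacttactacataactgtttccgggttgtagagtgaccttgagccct
Uqcrc1: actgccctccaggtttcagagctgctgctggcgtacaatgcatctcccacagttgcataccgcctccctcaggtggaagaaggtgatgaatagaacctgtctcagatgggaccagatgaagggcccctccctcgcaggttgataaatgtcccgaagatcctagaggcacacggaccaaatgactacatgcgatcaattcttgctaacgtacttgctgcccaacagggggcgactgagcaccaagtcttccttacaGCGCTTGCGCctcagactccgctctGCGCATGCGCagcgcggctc
Cox5a: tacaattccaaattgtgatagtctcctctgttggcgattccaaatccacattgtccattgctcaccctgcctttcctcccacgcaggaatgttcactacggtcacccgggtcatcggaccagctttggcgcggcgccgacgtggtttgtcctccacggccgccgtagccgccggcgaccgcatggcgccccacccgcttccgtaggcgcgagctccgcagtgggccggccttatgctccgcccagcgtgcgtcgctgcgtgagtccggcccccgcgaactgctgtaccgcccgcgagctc
Ndufb3: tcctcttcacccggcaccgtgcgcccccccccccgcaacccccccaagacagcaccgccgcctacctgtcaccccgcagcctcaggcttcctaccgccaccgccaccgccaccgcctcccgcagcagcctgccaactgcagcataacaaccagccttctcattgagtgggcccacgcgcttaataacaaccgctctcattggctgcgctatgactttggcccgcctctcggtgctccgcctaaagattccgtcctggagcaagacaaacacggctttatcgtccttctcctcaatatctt
Ndufs6: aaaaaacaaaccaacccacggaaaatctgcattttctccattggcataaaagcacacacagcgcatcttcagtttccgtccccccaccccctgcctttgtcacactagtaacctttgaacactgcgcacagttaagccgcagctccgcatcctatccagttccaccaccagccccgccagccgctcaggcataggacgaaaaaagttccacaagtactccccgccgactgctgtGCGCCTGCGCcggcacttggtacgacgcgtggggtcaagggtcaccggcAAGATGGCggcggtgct

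The window of Sdhd held the NRF1 and ETS motifs, that of Uqcrc1 held the NRF1 motif at 2 places, and that of Cox5a held none. The window of Ndufb3 also held none, and that of Ndufs6 held the NRF1 and YY1 motifs. Among the windows shown, which were chosen by fold change, genes that fell and genes that rose were found both with and without these letters. The part of the motifs in the direction of change was not tested. A promoter entry existed for 34 of the 45 members. The NRF1 motif occurred in 10 of them (29.4%), against 5.19% of 27025 promoters of all genes. The ETS motif occurred in 8 (23.5%), against 9.93%, and the YY1 motif in 3 (8.82%), against 3.19%. At least 1 of the 3 motifs was found in 18 members (52.9%), against 16.4% of all promoters. The 27025 promoters include those of genes not tested here, whereas every member was tested, so these shares are of unlike sets. A match is a description of letters in the window and shows no binding.

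The 3 genes that fell share a chromosome, an observation made after their values had been seen. Sdhd, Uqcrc1 and Cox5a lie on chromosome 9, and so does Cox7a2, which encodes another subunit of complex IV, with a log2 fold change of -0.28 ± 0.14 (SE, adjusted p = 0.106 in edgeR). Cox7a2 lay between 51.9 and 98.5 CPM with a median of 67.3 in MYT, against 84.4, 91.5, 93.3 and 68.1 CPM in VEH, and VEH replicates 1 to 4 all lay above the MYT median. Of the 41 members on other chromosomes, 23 rose, none fell and the median was 0.39. Over all 869 genes tested on chromosome 9 the median log2 fold change was -0.53, the lowest of 20 chromosomes, with 57.9% called lower and 11.5% called higher.

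Against that chromosome median, Sdhd was lower still by 0.53 (a difference of -0.53), whereas Uqcrc1, Cox5a and Cox7a2 differed from it by -0.07, 0.04 and 0.25. Ndufb3 exceeded the median of chromosome 1 (0.31) by 0.89, and Ndufs6 exceeded that of chromosome 13 (0.35, the highest of 20) by 0.75. On chromosome 13, 4 of 5 members rose, on chromosome 19 all 4, on chromosome 7 all 3 and on chromosome 1 another 3 of 4. Of all genes tested, 44.5% on chromosome 13, 36.7% on 19, 38.1% on 7 and 42.4% on 1 were called higher. On chromosome 2, 2 of 3 members rose, on chromosome 15, 1 of 4, and on chromosome 6, 1 of 3. There 33.3%, 27.9% and 25.2% of all genes were called higher. Library by library, chromosome 9 genes with a mean over 5 CPM deviated from their own medians over the 32 libraries by a median of -0.33 to -0.16 (log2 scale) in the MYT libraries, against 0.05 to 0.31 in the VEH libraries, without overlap. In the groups titled _7 it was 0.35 in every M20_7 library, to 2 decimals, and 0.32 to 0.37 in VEH_7. In the untreated tumours it was -0.22 to 0.25 in SPON, which overlapped with the MYT range, and 0.06 to 0.22 in WT.

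The levels of these 4 genes in the untreated tumours are a description beside this. Sdhd averaged 58.7 ± 10.4 CPM in MYT, 123 ± 18.3 CPM in VEH, 111 ± 26.7 CPM in SPON and 95.5 ± 18.4 CPM in WT (SD, n = 11, 4, 5 and 5). Uqcrc1 averaged 135 ± 10.8 CPM in MYT, 205 ± 21.3 CPM in VEH, 239.9 ± 86.7 CPM in SPON and 219 ± 18.1 CPM in WT. Cox7a2 averaged 69.3 ± 13.3 CPM in MYT, 84.3 ± 11.5 CPM in VEH, 128.9 ± 72.3 CPM in SPON and 85.8 ± 19.0 CPM in WT. For Sdhd, Uqcrc1 and Cox7a2 alike, MYT had the lowest mean of all 6 groups. Cox5a, by contrast, had its lowest mean in WT, at 66.8 ± 15.7 CPM, against 80.2 ± 13.7 CPM in MYT. DNA was not measured in the data used here, and the part that gene position, copy number or the treatment plays in these values was not tested.

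**Figure D5:**
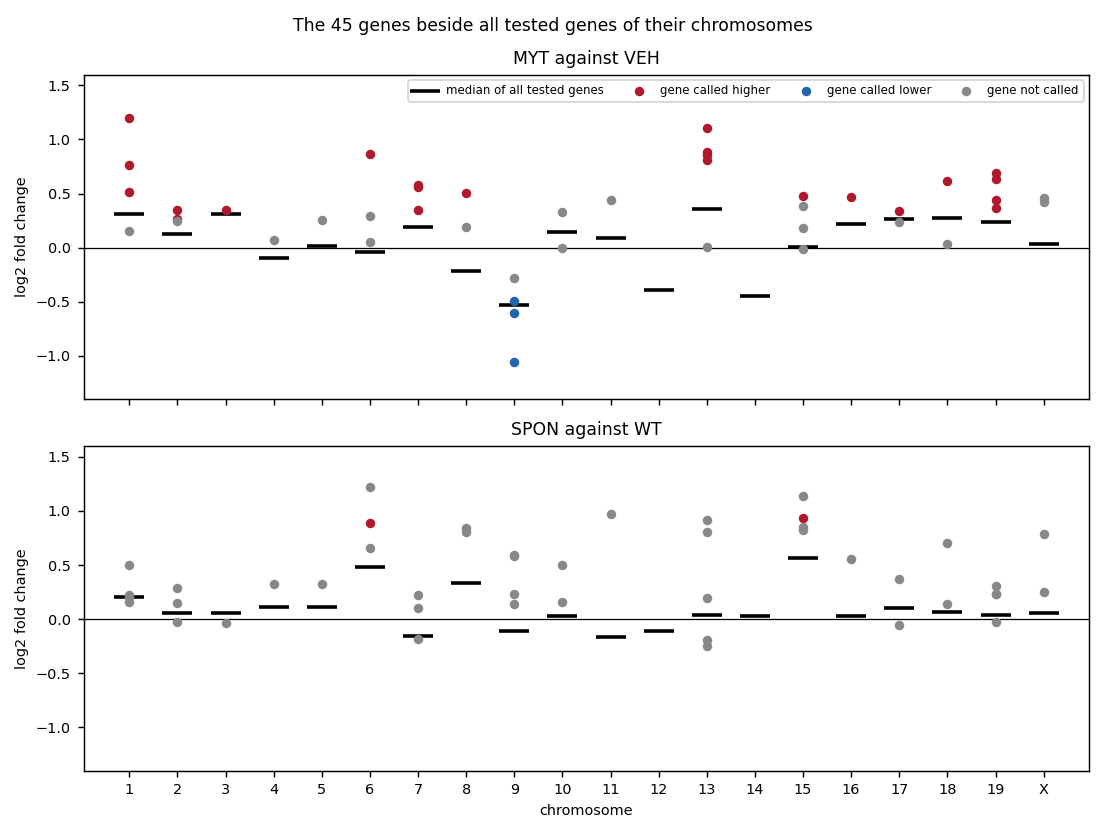
Points are the members' log2 fold changes by chromosome in MYT against VEH and in SPON against WT, and black bars are the medians of all genes tested on that chromosome. In MYT against VEH the 4 members on chromosome 9 are all below 0, where the chromosome's median is -0.53; in SPON against WT the 4 members on chromosome 15 are all above its median of 0.56.

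MYT and VEH libraries also differed in their markers. All 12 luminal epithelium markers were called higher in MYT and 11 of 12 fibroblast and mesenchymal markers were called lower, their sums lying at 2790 to 8787 CPM in MYT and 25885 to 43241 CPM in VEH. All 8 endothelial and all 8 macrophage markers were called lower. Endothelial sums were 97.8 to 212 CPM in MYT and 300.0 to 450.4 CPM in VEH, and macrophage sums were 586 to 1265 CPM in MYT and 1979 to 2709 CPM in VEH. All 8 proliferation markers were called higher, with sums of 1117 to 1898 CPM in MYT and 472 to 866 CPM in VEH. Skeletal muscle, a tissue rich in these subunits, had markers that summed to 6.56 to 16.4 CPM in MYT and 86.0 to 946 CPM in VEH. Of the 7 muscle markers tested, 4 were called lower and 1 was called higher in MYT. None of these sums overlapped between the groups, whereas the sums of basal epithelium, adipocyte and T cell markers did. The part of the markers' cell types in the members' changes was not tested.

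Other genes of the pathway were taken from lists. Their counts are to be read beside the 30.5% of all genes tested that were called higher in MYT and the 29% called lower. Of 34 further nuclear subunits, 17 rose and none fell in MYT (median 0.40), led by Ndufa11 at 1.17, Ndufs4 at 0.96 and Atp5j at 0.67. Of the 13 subunits encoded in mitochondrial DNA, 5 rose and none fell (median 0.34). Among them were the complex IV subunits mt-Co2 at 0.71, mt-Co1 at 0.57 and mt-Co3 at 0.46. With 1 library left out at a time, mt-Co2 and mt-Co1 were called in all 15 fits and mt-Co3 in 14. The rest of the 5 kept the call in 10 and 6 fits. Mitochondrial ribosomal proteins, which translate those 13 subunits, gave 42 higher and 3 lower of 73 (median 0.44). Assembly factors divided, with 12 higher and 7 lower of 42 (median 0.09), from Ndufaf2 at 1.29 to Foxred1 at -0.98, both for complex I. Genes of the TCA cycle gave 4 higher and 7 lower of 17 (median 0.04), with Suclg2, a subunit of succinyl-CoA ligase, at -2.95 and Dlat, of the pyruvate dehydrogenase complex, at -0.73. Of 17 regulators of mitochondrial biogenesis, 10 rose and 4 fell (median 0.45). Gabpb1, a subunit of GABP, had 0.75, while Ppargc1b, a coactivator of this programme, had -2.69. Of 23 genes for mitochondrial mass and import, 9 rose and 3 fell (median 0.22), with the fusion genes Mfn1 at 0.55 and Mfn2 at -0.90. Of 9 genes from these lists on chromosome 9, 4 fell (Dlat, Ecsit, Foxred1 and Mrpl3) and none rose (median -0.18). Falls were not confined to chromosome 9. None rose and 4 fell of 6 on chromosome 12 (median -0.62), and 1 rose and 4 fell of 7 on chromosome 14 (median -0.41). These chromosomes hold no member. Over all genes tested their medians were also low, at -0.39 on chromosome 12 and -0.44 on chromosome 14. There 43.2% of genes on chromosome 12 and 53.0% on chromosome 14 were called lower. The part of position was not tested. Over all chromosomes other than 9, 94 rose and 21 fell of 201.

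In the set titled _7, RP-6306 tumours were compared with vehicle tumours in the same way. No member was called with edgeR: 0 of 45, against 0% of the 16699 genes tested. None of the 45 had an unadjusted p under 0.05, against 6.19% of all genes, and neither DESeq2 nor limma voom called a member. The log2 fold changes lay between -0.08 and 0.37 with standard errors of 0.09 to 0.28. The median was 0.10, against 0.01 over all genes, and 40 of 45 values were positive.

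The 3 members with the smallest p were Cox5a, Ndufab1 and Uqcrc1. Cox5a had 93.5, 109.8, 101 and 103 CPM in M20_7, against 98.7, 81.3 and 86.5 CPM in VEH_7, a log2 fold change of 0.20 ± 0.10 (SE, adjusted p = 0.827 in edgeR). The first VEH_7 library lay above the first M20_7 library, so the groups overlapped. Ndufab1 had 24.1, 25.6, 27.4 and 26.0 CPM in M20_7, against 22.3, 17.5 and 24.7 CPM in VEH_7, and a log2 fold change of 0.26, with the third VEH_7 library above the first M20_7 library. Uqcrc1 had 181, 226, 193 and 178 CPM in M20_7, against 175, 162 and 171 CPM in VEH_7, with every M20_7 library above every VEH_7 library. It was the single member to be separated in this way, against 3.1% of all genes, while none was separated in the lower direction, against 3.58%. The log2 fold change of Uqcrc1 was 0.20 ± 0.11 (SE, adjusted p = 0.834 in edgeR). The genes with the largest changes in MYT had small values here: Sdhd 0.08, Ndufb3 0.11 and Ndufs6 -0.02 on the log2 scale. Those of Ndufs1, Sdhb, Uqcrfs1, Cox4i1 and Atp5b were 0.09, 0.09, 0.04, 0.09 and 0.12.

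The positive shift rested on 2 libraries. M20_7 replicate 2 was the highest of its group for 38 of 45 genes and VEH_7 replicate 2 the lowest of its group for 37. Without M20_7 replicate 2, 29 values were positive and the median was 0.02; without VEH_7 replicate 2, 27 were positive and the median was 0.03. Marker sums of these groups overlapped, with 804 to 1300 CPM in M20_7 and 836 to 1146 CPM in VEH_7 for proliferation and 2450 to 2798 CPM in M20_7 and 2513 to 3066 CPM in VEH_7 for macrophages.

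Whether the inhibitor against vehicle difference itself differed between the 2 sets was tested with edgeR as the value in MYT against VEH minus that in M20_7 against VEH_7. Since this test uses the same libraries as the 2 comparisons above, it is no separate evidence of either. The inhibitor and a difference of line between MYT and VEH cannot be told apart in it. The test called 12 of 45 members, 9 higher and 3 lower, against 36% of 17095 genes, 17% higher and 18.9% lower. The median was 0.28, against 0.01 over all genes, and 12 members had an unadjusted p under 0.05, against 45% of all genes.

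The 3 lower members were again Sdhd at -1.13 ± 0.22 (SE, adjusted p = 0.000382 in edgeR), Uqcrc1 at -0.79 ± 0.14 (SE, adjusted p = 0.000170 in edgeR) and Cox5a at -0.69 ± 0.20 (SE, adjusted p = 0.0108 in edgeR). The 5 largest of the higher ones were Ndufs6 at 1.13 ± 0.35 (SE, adjusted p = 0.0143 in edgeR), Ndufb3 at 1.10 ± 0.31 (SE, adjusted p = 0.00763 in edgeR), Uqcrfs1 at 0.78 ± 0.19 (SE, adjusted p = 0.00327 in edgeR), Ndufs8 at 0.77 ± 0.29 (SE, adjusted p = 0.0407 in edgeR) and Cox5b at 0.70 ± 0.24 (SE, adjusted p = 0.0269 in edgeR). Ndufs1, Sdhb, Cox4i1 and Atp5b were not called, with 0.08, -0.02, 0.11 and -0.12. With each of the 22 libraries left out in turn, Uqcrfs1 and the 3 lower members were called every time. Ndufb3 and Ndufs6 each lost the call without VEH_7 replicate 3, at 0.76 and 0.78. Ndufs8 was called in 11 and Cox5b in 16 of the 22 fits. The number of members called was 6 or 7 without VEH_7 replicate 1 or 3, M20_7 replicate 1, 3 or 4, or VEH replicate 2 or 4.

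SPON and WT, the untreated tumours, were compared with SPON on top of the fold change. Of the 45 genes, 2 were called with edgeR, both higher in SPON, against 8.38% of the 15558 genes tested, 4.52% higher and 3.86% lower. In all, 38 values were positive, with a median of 0.30 against 0.07 over all genes. An unadjusted p under 0.05 was found for 9 members, or for 26.6% of all genes. Over all genes edgeR called 703 higher and 600 lower, while upper-quartile scaling gave 509 higher and 715 lower. The fit with limma voom, which kept the TMM scaling, gave 557 higher and 766 lower. The balance of directions therefore depends on the scaling and on the test used.

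Cyc1 had 207, 148, 336, 199 and 325 CPM in the SPON replicates, against 146, 114, 123, 126 and 130.3 CPM in WT, and a log2 fold change of 0.94 ± 0.24 (SE, adjusted p = 0.0379 in edgeR). Every SPON library was above every WT library, with SPON replicates 3 and 5 far above the rest. Ndufa4 had 295, 423, 278, 295 and 256 CPM in SPON, against 236, 128, 184, 164 and 131 CPM in WT, again without overlap, and a log2 fold change of 0.89 ± 0.23 (SE, adjusted p = 0.0372 in edgeR). SPON replicate 2 was the high one here. Ndufa5, an accessory subunit of complex I, had 105, 89.4, 118, 63.7 and 222 CPM in SPON, against 52.3, 97.8, 44.2, 34.3 and 28.1 CPM in WT. It had the largest value of the 45 but missed the threshold, at 1.22 ± 0.40 (SE, adjusted p = 0.0790 in edgeR), and WT replicate 2 overlapped with SPON. Ndufs1 had 92.8, 72.5, 67.2, 82.5 and 81.4 CPM in SPON, against 58.1, 53.8, 50.5, 59.2 and 61.3 CPM in WT, without overlap, and a log2 fold change of 0.50 ± 0.16 (SE, adjusted p = 0.0815 in edgeR). Ndufs1, Cyc1 and Ndufa4 were the 3 members without overlap on the higher side, against 4.36% of all genes tested, and no member was separated on the lower side, against 5.45%. Without SPON replicates 1 and 5 the same 3 members were without overlap, against 8.61% of all genes on the higher and 10.1% on the lower side.

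Of the other members named for each complex, Cox4i1 had 595, 513, 1388, 474 and 1197 CPM in SPON, against 550.0, 524, 506, 399 and 353 CPM in WT, and a log2 fold change of 0.84 ± 0.34 (SE, adjusted p = 0.143 in edgeR). SPON replicates 3 and 5 lay far above all other libraries. Atp5b had 886, 1566, 807, 864 and 863 CPM in SPON, against 886, 455, 624, 757 and 825 CPM in WT, and a log2 fold change of 0.50 ± 0.28 (SE, adjusted p = 0.277 in edgeR), with replicate 2 the highest. Sdhb and Uqcrfs1 had 0.32 and 0.20. All 11 members of complex IV were positive (median 0.58), but 6 were positive and 5 negative without SPON replicates 1 and 5 (median 0.14). Structural or accessory subunits had a median of 0.57, and of 0.06 without the 2 libraries. Catalytic or electron-carrying subunits had one of 0.20, and of 0.02 without them.

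SPON replicates 1 and 5, the libraries rich in mitochondrially encoded counts, were high for the structural subunits. All 30 structural or accessory subunits lay above their median over the 32 libraries in both, with median deviations of 0.87 and 1.38 on the log2 scale. Of the 15 catalytic or electron-carrying subunits, 9 and 12 lay above theirs, with median deviations of 0.24 and 0.81. SPON replicate 3 had 29 of the 30 structural subunits above their median, while replicates 2 and 4 had 16 each. Sdha was lowest of SPON in replicate 5, at 63.3 CPM. These heights depend in part on the TMM factors used for CPM. As a share of all counts the 45 members took 0.720% in SPON replicate 1 and 0.929% in replicate 5. In SPON replicates 2, 3 and 4 they took 0.913%, 1.02% and 0.645%.

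Without SPON replicates 1 and 5, a comparison added after the data had been seen, the median of the members was 0.03, against 0.04 over all genes, and 26 of 45 were positive. Ndufa4 was then the single member called, against 7.39% of all genes, 3.92% higher and 3.47% lower. It had 0.99 (edgeR adjusted p = 0.0478), while Cyc1 had 0.84 (edgeR adjusted p = 0.0785). The values of members that were not called in either fit were 0.81 for Ndufa5, 0.40 for Ndufs1, 0.77 for Cox4i1, 0.61 for Atp5b, 0.20 for Sdhb and -0.02 for Uqcrfs1. Cyc1 and Ndufa4 were each called in 3 of the 10 fits that left out 1 library. Cyc1 lost the call without SPON replicate 3 or 5 or any 1 WT library, and Ndufa4 without SPON replicate 2, 3 or 4 or WT replicate 2, 3, 4 or 5; the values stayed between 0.78 and 1.06 for Cyc1 and between 0.74 and 1.02 for Ndufa4. The part of RNA quality or mitochondrial content in these libraries was not tested.

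Position on the chromosome was again looked at after the values had been seen. Chromosome 15 had the highest median of all genes (0.56), and its 4 members were Cox6c at 1.14, Cyc1 at 0.94, Ndufb9 at 0.85 and Ndufa6 at 0.82. Chromosome 6 followed at 0.48, with Ndufa5 at 1.22, Ndufa4 at 0.89 and Ndufa9 at 0.65, and chromosome 8 at 0.33, with Cox4i1 at 0.84 and Ndufb7 at 0.81. Without SPON replicates 1 and 5 these 3 chromosomes still had the 3 highest medians of all genes, at 0.44 for 15, 0.54 for 6 and 0.44 for 8. The members of chromosome 15 were lower then, with Cox6c at 0.43, Cyc1 at 0.84, Ndufb9 at 0.37 and Ndufa6 at 0.04, and the medians of the members were 0.40 on chromosome 15, 0.81 on 6 and 0.55 on 8. In single libraries the members deviated both with and without their chromosome. All genes of chromosome 6 had a median deviation of 0.65 in SPON replicate 2 and its members 1.42, and those of chromosome 8 had 0.80 in SPON replicate 3 and its members 1.66. In SPON replicate 5, by contrast, the members of chromosome 8 had a median of 1.82 and those of chromosome 15 lay between 0.919 and 2.17, where all genes of the 2 chromosomes had medians of 0.16 and 0.17. The part of position in these values was not tested.

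Among the other lists in SPON against WT, the 34 further nuclear subunits had a median log2 fold change of 0.48, and -0.01 without SPON replicates 1 and 5. None of the 13 mitochondrially encoded subunits was called; their median was 1.39, and -0.60 without the 2 libraries. Nrf1, the transcription factor itself, had 0.80 ± 0.19 (SE, adjusted p = 0.0275 in edgeR), and Vdac3, a channel of the outer membrane, had 1.05 ± 0.22 (SE, adjusted p = 0.0177 in edgeR). Nrf1 lost the call without SPON replicate 3 or 4 or WT replicate 1, 2, 3 or 4 (lowest value 0.74), and Vdac3 without WT replicate 3 or 4 (lowest of all fits 0.93). Without SPON replicates 1 and 5 Nrf1 had 0.89 (edgeR adjusted p = 0.0353) and Vdac3 0.91 (edgeR adjusted p = 0.0563). Beside these, 3 of 8 proliferation markers were called higher in SPON, with sums of 1176 to 2046 CPM in SPON and 568 to 1042 CPM in WT. Macrophage sums were 286 to 715 CPM in SPON and 163 to 333 CPM in WT, and fibroblast sums 1806 to 7231 CPM in SPON and 1083 to 2654 CPM in WT. Their part was not tested.

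Subunit forms restricted to some tissues, or induced by low oxygen, were looked at apart from the members. Ndufa4l2, the hypoxia-induced relative of Ndufa4, averaged 14.99 ± 12.1 CPM in SPON and 2.32 ± 0.74 CPM in WT (SD, n = 5 each), with ranges of 6.94 to 36.5 CPM in SPON and 1.44 to 3.15 CPM in WT. The groups did not overlap, and its log2 fold change was 2.69 ± 0.50 (SE, adjusted p = 0.0114 in edgeR). It was called in all 10 fits with 1 library left out, with the lowest value, 2.06, without SPON replicate 5, and without SPON replicates 1 and 5 it had 2.08 (edgeR adjusted p = 0.0204). Cox8b, the heart and muscle form of Cox8a, had 5 counts over the SPON libraries and 179 over the WT libraries, a log2 fold change of -4.80 ± 1.02 (SE, adjusted p = 0.0180 in edgeR). It had -6.44 without SPON replicate 3 and -4.21 (edgeR adjusted p = 0.0549) without SPON replicates 1 and 5, and no count was found for it in MYT or VEH. Cox6b2, the testis form of Cox6b1, fell in MYT to 0.587 ± 0.288 CPM, against 1.30 ± 0.45 CPM in VEH (SD, n = 11 and 4), a log2 fold change of -1.14 ± 0.41 (SE, adjusted p = 0.0246 in edgeR), and it lost the call without VEH replicate 1, at -0.90. Cyct, the testis cytochrome c, had no count in any of the 32 libraries.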

How the data were processed

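Total RNA from mouse mammary tumours was extracted with Trizol and sequenced by a commercial provider, per the labels' protocols. The submitters' processing notes name STAR 2.7.10a, HTSeq, edgeR and the build GRCm38, per the labels, while annotation release and strandedness are not given in the sources used here. The deposited table holds whole-number read counts per gene, not normalized, for 33 libraries. The authors also deposited log2 CPM values, which differed from log2 CPM recomputed from the counts by at most 0.0576, and all results were computed from the counts. No symbol was given for 791 genes, which took 0.0482% of the counts and stayed in under their Ensembl IDs.

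CPM values used TMM factors over all 33 libraries. Each comparison was fitted on its own groups with the quasi-likelihood test of edgeR 4.0.16 (R 4.3.3), after filterByExpr and TMM scaling, with Benjamini-Hochberg adjustment over all genes tested and a threshold of 0.05. The standard error came from the fold change and the F statistic. Alternatives were DESeq2 size factors, upper-quartile scaling, limma 3.58.1 with voom, DESeq2 1.42.0, leaving out mitochondrially encoded genes, keeping genes of low counts, 1 fit over 32 libraries, and leaving out libraries 1 at a time. Leaving out SPON replicates 1 and 5 together was added after the data had been seen. Exon lengths and positions came from GENCODE M21 on GRCm38, and promoters from RefSeq.

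Groups came from titles and treatment fields. A sample titled as vehicle but labelled with RP-6306 treatment was not used. Replicate numbers follow accession order and pair nothing. Sampling noise was exceeded in each of the 90 comparisons of libraries from the same group (chi-square per degree of freedom of at least 16.1, over genes with at least 10 counts). The members and lists were chosen with earlier results of these data known, so no test was made over a list. Of 314 listed symbols, 313 matched. The text names Ndufs1, Sdhb, Uqcrfs1, Cox4i1 and Atp5b in each comparison, and the 5 largest and 5 smallest fold changes among members called in each direction. Where fewer than 3 were called, it adds the 3 members with the smallest p. Of each list at most the 3 genes with the smallest p are named, and further members were named after their values had been seen. Counts were simulated with 200 genes changed 2-fold and all others unchanged. The fits recovered 56% of these 200 in M20_7 against VEH_7 and 62% in MYT against VEH. It was 0% in SPON against WT and 25% in the difference between the sets. In the data 59.5% of genes were called in MYT against VEH and 8.38% in SPON against WT, so these shares do not give the chance of a call there. With standard errors of 0.16 to 0.53 for the members, a missing call in SPON against WT still says little. The result of 1 further gene of the pathway lists is not reported here.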

Additional observations from a re-analysis of the deposited data

Results flagged for a closer look

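Of 52 combinations of a named member or the mitochondrial share with a group of 4 or 5 libraries, 6 had a library far from the others, where chance gives about 1 in 20. Cox5b was highest in M20_7 replicate 2, at 53.8 CPM. The share of mitochondrially encoded counts was lowest in M20_7 replicate 1, at 1.33%. Cox4i1 was lowest in VEH replicate 4, at 256 CPM. Ndufa4 and Atp5b were highest in SPON replicate 2, at 423 and 1566 CPM. The mitochondrial share in WT was highest in replicate 2, at 7.75%.

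The difference between RP-6306 and vehicle tumours differed between the 2 sets, with edgeR's test of the difference itself, for 8 of the members named in that comparison. On the log2 scale it was lower in MYT against VEH than in M20_7 against VEH_7 for Sdhd (-1.13, edgeR adjusted p = 0.000382), Uqcrc1 (-0.79, edgeR adjusted p = 0.000170) and Cox5a (-0.69, edgeR adjusted p = 0.0108). It was higher for Ndufs6 (1.13, edgeR adjusted p = 0.0143), Ndufb3 (1.10, edgeR adjusted p = 0.00763), Uqcrfs1 (0.78, edgeR adjusted p = 0.00327), Ndufs8 (0.77, edgeR adjusted p = 0.0407) and Cox5b (0.70, edgeR adjusted p = 0.0269). The naming rule picks members that were called, so the number 8 follows in part from that rule. Of all 45 members 12 were called, against 36% of 17095 genes. The inhibitor and a difference of line between MYT and VEH cannot be told apart in these values.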

How the results depend on the processing

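In M20_7 against VEH_7, 0 members were called under each of the alternatives, including each library left out in turn. In MYT against VEH, the 26 members called became 16, of which 13 were higher, in 1 fit over 32 libraries. They ranged from 17 to 29, and the higher ones from 14 to 26 and the lower ones from 3 to 4, with 1 library left out. In SPON against WT, the 2 members called, both higher, became 0 with upper-quartile scaling, 0 with no filter on low counts, 4 with DESeq2, 15 in 1 fit over 32 libraries and 1 without SPON replicates 1 and 5, and ranged from 0 to 2 with 1 library left out. The shares of all genes called in the DESeq2 fit and in the 1 fit over 32 libraries are not given here. The moves to 4 and 15 are therefore not read as a result about the members. In SPON against WT the median over all genes was 0.07, against -0.02 with upper-quartile scaling and -0.03 with limma voom. The median of the members was 0.30, 0.21 and 0.23. In the difference between the sets, the 12 members called became 4, of which 2 were higher, in 1 fit over 32 libraries. There they ranged from 6 to 13, and the higher ones from 3 to 10, with 1 library left out. The cause of these moves was not tested, beyond the fewer samples in fits with libraries left out. No named gene changed its direction where it was called. The 8 genes of M20_7 against VEH_7 and the 13 of MYT against VEH that the naming rule picked kept their side of the threshold under every alternative. Some other members did not: in MYT against VEH, 9 called members lost the call and 6 others gained it in at least 1 fit with 1 library left out, and 10 lost it in 1 fit over 32 libraries. No paired analysis was possible because replicate numbers were given in accession order and pair no samples. Depth sets a limit for Cox8b, with 5 counts over the SPON libraries, and for Cyct, with none in any library.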
